A study of Rattus norvegicus with 8 samples.

Results

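Cadherins and protocadherins are the large family of calcium-dependent adhesion proteins of the cell surface. The set holds every gene whose array annotation gives a probe set exactly 1 symbol beginning with Cdh or Pcdh and a number, or with Pcdha, Pcdhb or Pcdhg. That gave 81 genes on 518 probe sets, out of 16633 genes measured in all. The set falls into 5 type I classical cadherins, 13 type II classical cadherins, 5 other cadherins, 9 delta protocadherins, 4 other protocadherins, and 11, 20 and 14 genes of the alpha, beta and gamma protocadherin clusters. The symbols are those of the array and partly old: Pcdh21, Pcdh24 and Pcdhb13 are Cdhr1, Cdhr2 and Pcdhb12 in RefSeq's current list. The array's own Pcdhb12 is a member too, so that current gene is counted under both symbols.

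The retinas came from male Brown Norway rats of 8 weeks, an inbred pigmented strain. One group of 4 arrays was taken 4 h after transcorneal electrical stimulation (TES), in which current reaches the retina through an electrode on the cornea. The other 4 arrays, whose titles call them TES controls, came from sham-treated animals at the same time. The sources used here do not tie each array to its own animal, so the spread between arrays may be partly technical.

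Classical cadherins bind the same cadherin on a neighbouring cell through their outermost repeats. Their tails hold p120-catenin and beta-catenin, and beta-catenin links them to actin through alpha-catenin. The clustered protocadherins are encoded by arrays of variable exons, each with its own promoter, and give single neurons different surface identities. In the retina, N-cadherin (Cdh2) holds the junctions of the outer limiting membrane, other classical cadherins and delta protocadherins mark types of neurons, and the gamma cluster takes part in the self-avoidance of starburst amacrine cells.

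Each beta and gamma exon has its own start, so the promoters can be read beside the values. RefSeq windows from 250 bases before to 50 bases after the gene start (build GRCr8) were at hand for 53 of the 70 members outside the alpha cluster, which RefSeq lists as a single gene. The letters CGCT, known as the core of a conserved element that CTCF binds in clustered protocadherin promoters, stood on either strand in 25 of 28 beta and gamma windows, in 19 of 25 windows of other members and in 62.4% of the 27457 windows of all genes. A longer form, GTGGCGCT, was found by comparing 8-letter words in these same windows, so its count is a description. It was searched on both strands, and it contains CGCT. It stood in 13 of 15 beta windows, in 0 of 13 gamma windows, in 1 of 25 windows of other members and in 1.14% of all windows. All 13 beta sites lay on the strand of the gene, between 45 and 228 bases before its start. The following 4 show how alike the surrounding bases are in the beta gene of smallest p (Pcdhb21), in 2 others with a lower mean after TES (Pcdhb2 and Pcdhb6) and in the beta gene with the highest mean difference (Pcdhb7). Capitals mark GTGGCGCT, all lie on the plus strand, and they read 5′ to 3′.
Pcdhb21, chr18:29492144-29492183: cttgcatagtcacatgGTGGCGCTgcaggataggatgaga
Pcdhb2, chr18:29279918-29279957: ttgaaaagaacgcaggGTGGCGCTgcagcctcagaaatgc
Pcdhb6, chr18:29320147-29320186: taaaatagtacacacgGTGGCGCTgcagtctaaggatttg
Pcdhb7, chr18:29328993-29329032: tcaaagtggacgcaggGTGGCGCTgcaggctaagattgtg
These 4 were picked partly by their differences after TES. Over all beta and gamma genes with a window, 11 of the 13 with GTGGCGCT were lower after TES in the mean (median difference -0.083 on the log2 scale), as were 6 of the 15 without it (median 0.0077). All 13 genes with the letters are beta genes and 13 of the 15 without them are gamma genes, so the letters and the cluster cannot be told apart here, and no test was run.

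Values below are log2 GC-RMA signals, averaged over the probe sets of a gene on each array, and every difference is the mean of the 4 TES arrays minus the mean of the 4 sham arrays. Array medians lay between 5.32 and 5.41. The 95th percentile of 1100 olfactory receptor genes, 3.10, serves as a guide to low signal. The mean signal of 76 members was above it, and that of Cdh16, Cdh17, Pcdh12, Pcdh20 and Pcdhb1 was at or below it. A member rests on a median of 2 probe sets against 8 for all genes, and 28 members rest on 1.

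Across the set, the stimulated and sham retinas were close. Of 81 members, 69 differed by under 0.2 on the log2 scale. In limma, 0 members passed an adjusted p of 0.05, as did 0% of all genes, and the smallest adjusted p among the members was 0.817. At an unadjusted p under 0.05 there were 5 members (6.17%), Cdh4, Cdh20, Pcdha1 and Pcdhb21 lower after TES and Pcdha4 higher, where 5.57% of all genes reached that level. By direction, 4 members (4.94%) were lower against 3.22% of all genes, and 1 (1.23%) was higher against 2.35%. The same 5 (6.17%) also met the 2 thresholds of the series text, a fold of at least 1.2 on top of that p, against 3.59% of all genes. At a fold of at least 1.2 alone there were 7 members (8.64%), against 5.75% of all genes. Cdh4 was the 1 member (1.23%) whose groups did not overlap, against 3.31% of all genes. In the mean, 51 members (63.0%) were lower after TES, against 54.9% of all genes. The median difference was -0.04 for the members and -0.01 for all genes. The share at an unadjusted p under 0.05 is near that of all genes. The shares past 1.2 fold, with and without that p, are higher among the members, and no share was tested. Pcdha4, Pcdha1 and Pcdhb21 rest on 1 or 2 probe sets, as do 47 of the 81 members. Among all genes on 1 or 2 probe sets, 231 of 2748 had an unadjusted p under 0.05 in limma. The share of such genes past 1.2 fold is not given here.

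**Figure D1:**
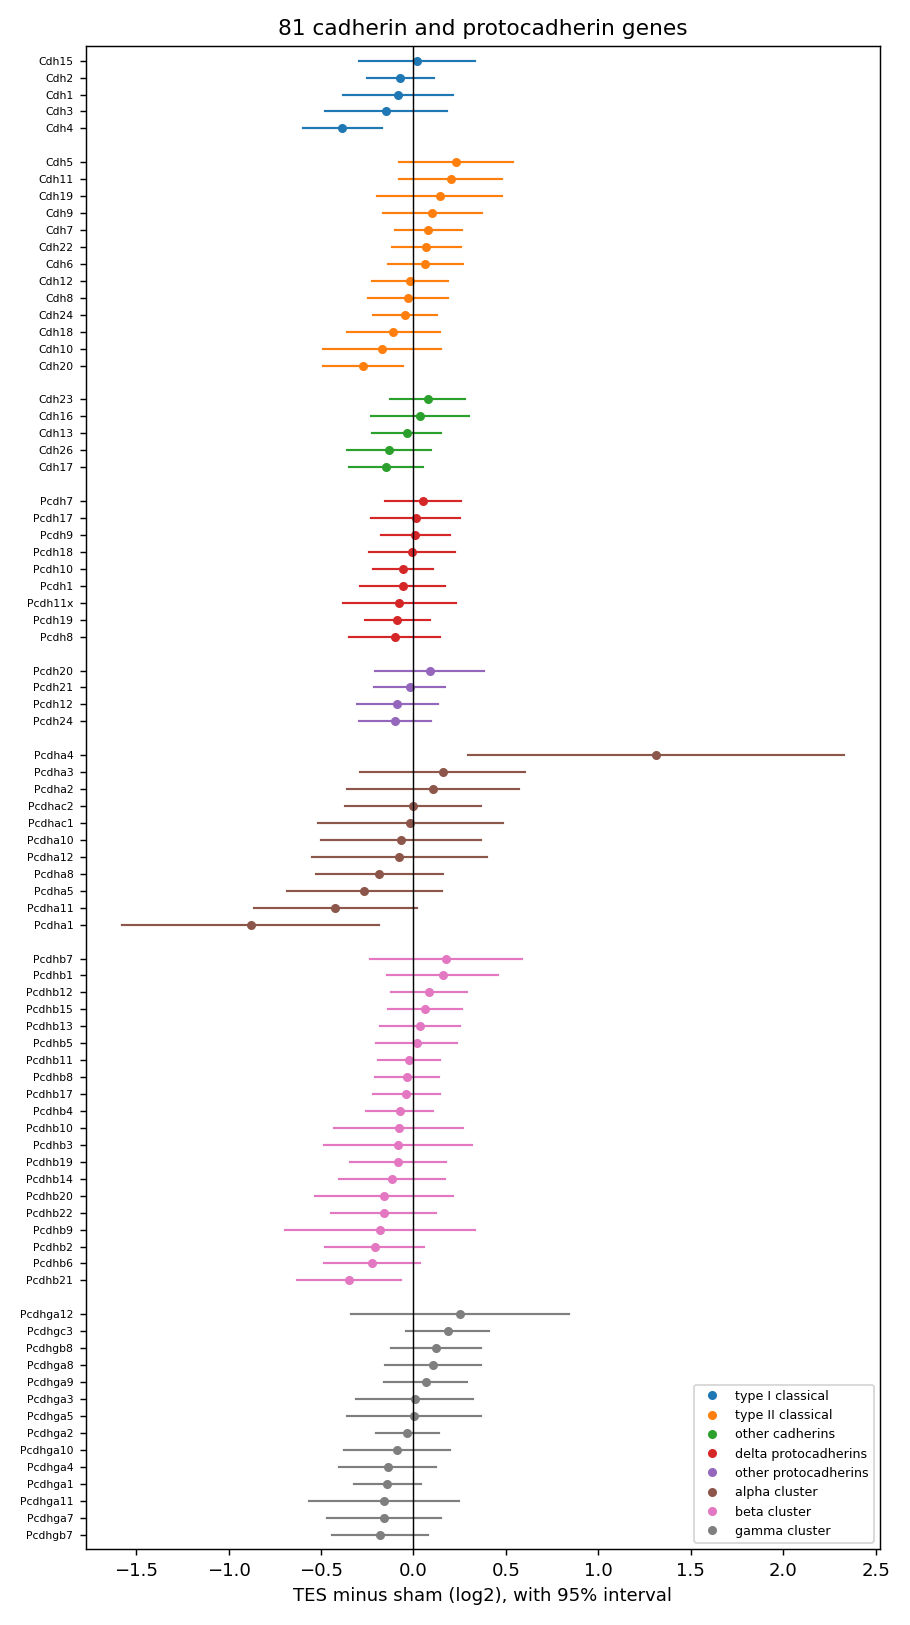
TES minus sham for each of the 81 genes on the log2 scale (horizontal axis), ordered within each family, with the 95% interval from limma as a bar. Most points lie within 0.2 of 0, Cdh4 is the lowest classical cadherin at -0.39, and the alpha cluster holds both the highest point (Pcdha4, 1.31) and the lowest (Pcdha1, -0.88).

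Among the 5 type I classical cadherins, the cadherins typical of adherens junctions, 4 were lower after TES in the mean and 1 was higher. Cdh4 encodes R-cadherin, named for the retina from which it was first described. Cdh4 signals were 6.64, 6.92, 6.92 and 6.99 on TES 1 to 4 and 7.34, 7.23, 7.31 and 7.12 on sham 1 to 4. Every TES array was below every sham array with TES 1 lowest. The Cdh4 difference was -0.39 ± 0.10 (SE; 95% interval -0.60 to -0.17, n = 4 and 4), and its limma adjusted p over all genes was 0.817. Cdh4 ranked 38 of all genes by unadjusted p (0.00222). Its place among the smallest p-values was known from earlier results of these data, so this p is no independent support.

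The 4 Cdh4 probe sets had differences of -0.43, -0.36, -0.42 and -0.33, all lower after TES. On the probe set with the highest signal, TES arrays read 8.32, 8.33, 8.10 and 8.23 and sham arrays 8.50, 9.00, 8.58 and 8.59. That was the 1 of 4 probe sets with non-overlapping groups and with an unadjusted p under 0.05 (0.0268). Of all probe sets, 5.13% had an unadjusted p under 0.05. On the probe set with the lowest signal, TES arrays read 4.68, 4.77, 5.44 and 4.73 and sham arrays 6.01, 4.77, 5.60 and 4.996, so the groups overlapped. Leaving out each probe set in turn gave Cdh4 differences of -0.40 to -0.37. Probe sets of 1 gene share its RNA on each array and are not replicates.

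The other type I members differed less, and all their intervals held 0. Cdh2, the N-cadherin of neural and glial junctions, stood at 8.32 ± 0.10 (SD, n = 4) in stimulated and 8.39 ± 0.05 in sham retinas, and differed by -0.07 (95% interval -0.25 to 0.11). Cdh1, the E-cadherin of epithelia, stood at 3.56 ± 0.14 and 3.65 ± 0.29, and sham 2 lay apart at 3.22. Cdh3, the P-cadherin found in pigment epithelium, stood at 3.74 ± 0.30 and 3.89 ± 0.20, a difference of -0.15 (95% interval -0.48 to 0.18). On the probe set of highest signal alone, the Cdh3 difference was 0.27. Cdh15, the muscle cadherin, differed by 0.02.

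Cell type markers were read beside Cdh4, and the smallest limma adjusted p among them was 0.817. The mean of 4 horizontal cell markers was 5.52 to 5.79 on TES arrays and 5.83 to 6.05 on sham arrays, with no overlap, 3 of 4 genes lower and none at the low guide. The largest part came from Onecut2, a transcription factor of horizontal cells listed under an older identifier on the array, at 4.70, 5.41, 5.31 and 5.52 after TES and 6.17, 5.93, 5.92 and 5.77 after sham. Onecut2 differed by -0.71 (limma adjusted p 0.817). Calb1, Lhx1 and Onecut1 differed by -0.16, -0.16 and 0.03. Each of them overlapped between the groups, so Onecut2 was the only horizontal marker that separated the groups by itself. The list was chosen with earlier results of these data known, so the separation of its mean is no independent support. The mean of 7 ganglion cell markers was 6.71 to 6.86 on TES arrays and 6.83 to 7.01 on sham arrays, with 5 of 7 lower. The groups overlapped, and Isl2 had the largest difference of these genes, -0.49 (limma unadjusted p 0.00535, adjusted p 0.817). The mean of 6 pigment epithelium markers was 5.28 to 6.06 and 5.69 to 6.11, with 5 of 6 lower and 1 at or below the low guide. Of the 5 lower genes, 4 had an unadjusted p under 0.05 in limma, against 5.57% of all genes. The list mean overlapped between the groups here as well. The part of these cell types in the Cdh4 and Cdh3 values was not tested. In whole retina, fewer cells of a type and less RNA per cell cannot be told apart. Rod markers, 10.26 to 10.54 on TES arrays and 10.36 to 10.48 on sham arrays, overlapped, and all 6 measured rod genes were above the low guide, as fits the labelled tissue. Of these, 4 were lower in the mean, with Rom1 at -0.38 (limma unadjusted p 0.0389). The list means of the other cell types overlapped between the groups too. The genes lower in the mean were 2 of 5 for cones, 3 of 4 for bipolar cells, 5 of 6 for amacrine cells, 1 of 5 for Mueller glia, 2 of 3 for astrocytes, 5 of 5 for microglia, 1 of 4 for lens, 1 of 3 for surface epithelium, 2 of 4 for mural cells and 0 of 4 for erythrocytes. Of these 10 lists, only lens held genes with an unadjusted p under 0.05, Mip at 0.48 (p 0.00641 in limma) and Crygc at 0.43 (p 0.0126), both higher after TES. The lens list mean was 2.78 to 3.47 on TES arrays and 2.67 to 3.03 on sham arrays, and 3 of its 4 genes were at or below the low guide.

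**Figure D2:**
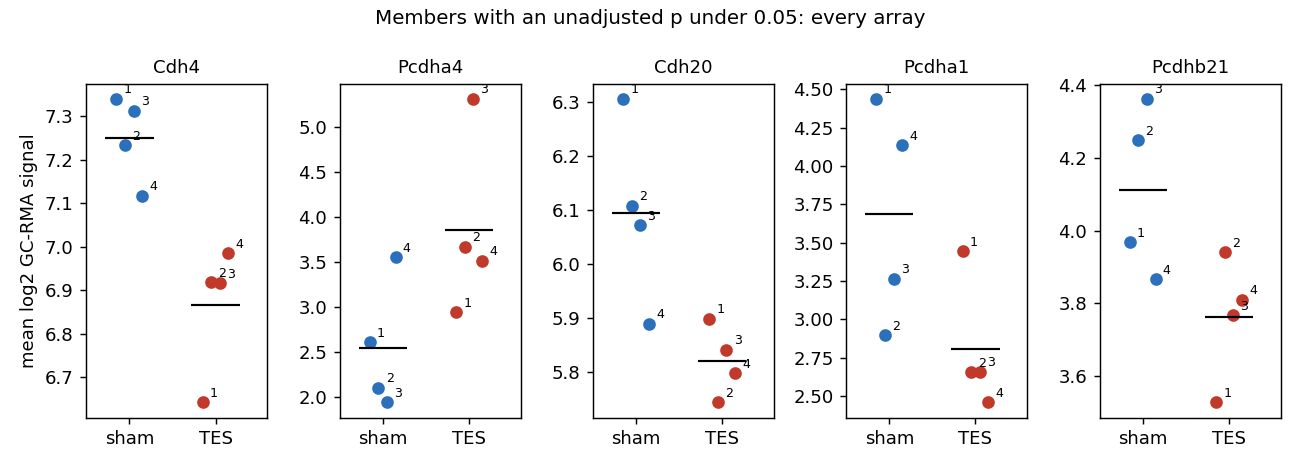
Mean log2 GC-RMA signal of the 5 members with an unadjusted p under 0.05 on each array (vertical axis, a scale of its own per gene). Points are single arrays with their replicate numbers, blue for sham and red for TES, and bars are group means. Cdh4 is the 1 gene of the 5 in which the groups do not overlap.

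The 13 type II cadherins, which include many neuronal cadherins of defined brain and retinal circuits, split into 6 lower and 7 higher in the mean, with differences from -0.27 to 0.23. Cdh20 had the lowest value and the 1 unadjusted p under 0.05. Cdh20 signals were 5.90, 5.74, 5.84 and 5.80 on TES 1 to 4 and 6.31, 6.11, 6.07 and 5.89 on sham 1 to 4. The groups overlapped by 1 array, sham 4, which lay just under TES 1. The Cdh20 difference was -0.27 ± 0.10 (SE; 95% interval -0.49 to -0.06), with a limma adjusted p of 0.843. Of its 11 probe sets 10 were lower after TES, from -0.70 to 0.03. An unadjusted p under 0.05 was found for 2 of the 11, against 5.13% of all probe sets. Without sham 1 the unadjusted p was 0.0597. With the median probe set standing for the gene the difference was -0.18 (unadjusted p 0.174), and with the probe set of highest signal it was -0.19 (0.288).

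Cdh5, the VE-cadherin of endothelial junctions, was the highest type II member. It read 3.93, 4.09, 4.38 and 3.90 on TES 1 to 4 and 3.74, 3.69, 4.21 and 3.73 on sham 1 to 4. The 3 sham arrays other than sham 3 lay below every TES array, and sham 3 lay among the highest arrays. The Cdh5 difference was 0.23 (95% interval -0.08 to 0.54; limma adjusted p 0.920). Endothelial markers did not share that direction: Cldn5, Tek and Tie1 were all lower in the mean, with a list mean of 4.00 to 4.42 on TES arrays and 4.27 to 4.40 on sham arrays. On the Cdh5 probe set of highest signal the difference was -0.03.

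Cdh11, the osteoblast and mesenchymal cadherin, had 12 of 14 probe sets higher after TES and a difference of 0.20 (95% interval -0.08 to 0.48). Its lowest array was sham 2 at 7.18, and the others ranged from 7.57 to 7.90. Without sham 2 the Cdh11 difference was 0.077, and on the probe set of highest signal it was 0.12. Cdh6, which in mouse marks direction-selective ganglion cells, and Cdh8, which in mouse acts in the wiring of bipolar cells, differed by 0.06 and -0.03, with 95% intervals of -0.14 to 0.27 and -0.25 to 0.19. Cdh10 differed by -0.17 (95% interval -0.49 to 0.15), by 0.19 when the median probe set stood for it and by -0.61 on the probe set of highest signal. Without TES 4 the Cdh10 difference was -0.045, and without TES 3 it was -0.30. The other 7 type II members lay between -0.11 (Cdh18) and 0.14 (Cdh19).

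The 5 other cadherins were 3 lower and 2 higher, and none had an unadjusted p under 0.05. Cdh13, T-cadherin, which lacks a cytoplasmic tail and is anchored by a lipid, stood at 6.08 ± 0.04 after TES and 6.11 ± 0.12 after sham. Cdh23, a tip link protein of hair cells whose loss causes Usher syndrome in humans, differed by 0.08 (95% interval -0.13 to 0.28). It was measured by 66 probe sets, more than any other member, of which 30 were lower, 36 higher and 7 (10.6%) had an unadjusted p under 0.05, against 5.13% of all probe sets. Its mean signal, 3.11, lay at the low guide of 3.10. Cdh16 and Cdh17, the kidney and the liver-intestine cadherin, were at or below the low guide, and Cdh26 was just above it at 3.19.

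The 9 delta protocadherins, which carry short conserved tail motifs and act in axon growth and sorting, were the most even family. They were 6 lower and 3 higher in the mean, between -0.10 (Pcdh8) and 0.05 (Pcdh7), and none had an unadjusted p under 0.05. Pcdh10, whose tail binds the WAVE complex, stood at 6.25 ± 0.05 after TES and 6.31 ± 0.02 after sham, the smallest spread between arrays of any member. Pcdh19, which in humans is mutated in an epilepsy of females, stood at 6.08 ± 0.08 and 6.17 ± 0.06, a difference of -0.09 (95% interval -0.26 to 0.09). With the median probe set, the Pcdh19 difference was 0.17. Pcdh7, Pcdh9 and Pcdh17 differed by 0.05, 0.01 and 0.01. The 2 probe sets of Pcdh9 hold the same value on every array, so they count as 1 measurement.

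Of the 4 other protocadherins, Pcdh21 (now Cdhr1, a cadherin of the base of photoreceptor outer segments) is the one specific to photoreceptors. It read 10.23, 10.01, 10.17 and 10.19 on TES 1 to 4 and 10.25, 10.07, 10.10 and 10.27 on sham 1 to 4. The groups overlapped over nearly their whole range, and the difference was -0.02 (95% interval -0.21 to 0.17). Pcdh24, Pcdh12 and Pcdh20 differed by -0.10, -0.09 and 0.09. Pcdh15, the partner of Cdh23 in the tip link, was not analysed here.

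The clustered protocadherins made up 45 of the 81 members, 29 lower and 16 higher in the mean. In the alpha cluster, 8 of 11 genes were lower and 3 higher. Pcdha4 had the highest mean increase of all 16633 genes, and its value rests on 1 probe set. Pcdha4 read 2.94, 3.67, 5.32 and 3.52 on TES 1 to 4 and 2.61, 2.10, 1.94 and 3.55 on sham 1 to 4. TES 3 was far above the rest, sham 4 lay above TES 1 and TES 4, and 3 of 4 sham arrays were below the low guide. The Pcdha4 difference was 1.31 ± 0.46 (SE; 95% interval 0.30 to 2.33), with a limma adjusted p of 0.843. Without TES 3 it was 0.83 (unadjusted p 0.0337), and the unmoderated test gave an unadjusted p of 0.0810.

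The 2 probe sets annotated for both Pcdha4 and Pcdhac2 differed in sign from each other. The first read 3.55, 3.84, 3.32 and 3.75 after TES and 3.73, 3.68, 4.40 and 4.52 after sham, differing by -0.47. The second read 6.20, 6.52, 6.18 and 6.13 after TES and 6.20, 6.37, 5.90 and 6.05 after sham, differing by 0.13. On both, TES 3 was among the lower TES arrays. The 4 probe sets shared by all alpha genes, which read the constant exons of the cluster, differed by -0.16 to 0.07, with unadjusted p of 0.452 or more.

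**Figure D3:**
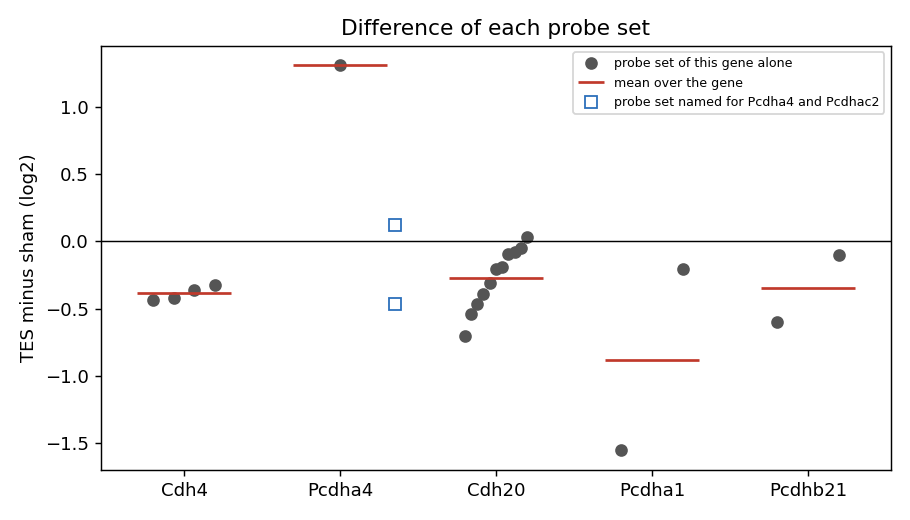
TES minus sham on the log2 scale (vertical axis) for every probe set of the 5 members with an unadjusted p under 0.05. Grey points are probe sets named for that gene alone, red lines the difference of the gene mean, and open squares the 2 probe sets named for both Pcdha4 and Pcdhac2. The 4 Cdh4 points lie close together between -0.43 and -0.33, whereas the Pcdha1 points lie at -1.56 and -0.20.

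Pcdha1 was the alpha gene with the lowest difference. Pcdha1 read 3.44, 2.65, 2.66 and 2.46 on TES 1 to 4 and 4.44, 2.90, 3.27 and 4.14 on sham 1 to 4. TES 1 lay above sham 2 and sham 3, so the groups overlapped. The difference was -0.88 ± 0.32 (SE; 95% interval -1.58 to -0.18), with a limma adjusted p of 0.843. It came mainly from 1 of 2 probe sets, which read 2.50, 1.10, 1.17 and 1.18 after TES and 4.75, 1.10, 2.40 and 3.91 after sham. On that probe set the mean over all arrays, 2.26, lay below the low guide, and the other probe set differed by -0.20. Leaving out TES 4, sham 1 or sham 4 took the unadjusted p of Pcdha1 to 0.0528, 0.0540 and 0.0530, with differences of -0.76, -0.63 and -0.73. It was 0.0824 in the unmoderated test and 0.286 on the probe set of highest signal alone.

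The alpha genes also had a wide spread between arrays of 1 group. The SD of an alpha gene within a group had a median of 0.369, from 0.268 to 0.886, against 0.153 for all genes and 0.176 for genes on 1 probe set. Of the 1788 genes on 1 probe set, 1280 were at or below the low guide, whereas all 11 alpha genes were above it. The genes on 1 probe set are therefore not matched to the alpha genes in signal. The median SE of a difference was 0.204 for alpha genes and 0.107 for all genes, so the same difference is read less precisely there. Pcdha11 and Pcdha5 differed by -0.42 and -0.27, past 1.2 fold, with 95% intervals that held 0.

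**Figure D4:**
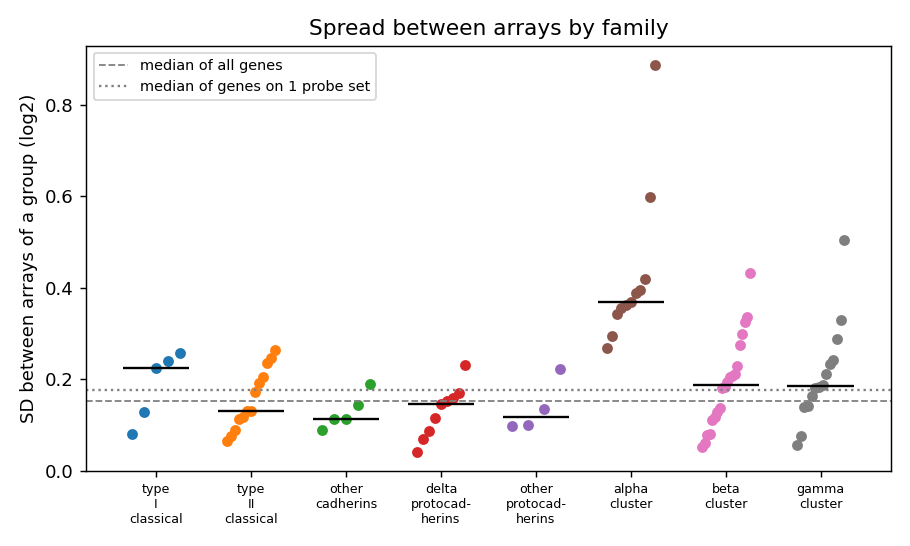
SD between the arrays of a group on the log2 scale (vertical axis, from 0) for every member, by family. Points are genes, black lines family medians, and grey lines the medians of all genes (0.153) and of genes on 1 probe set (0.176). All 11 alpha genes lie above both grey lines.

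In the beta cluster, 14 of 20 genes were lower after TES in the mean and 6 were higher, with a median difference of -0.08. Pcdhb21, the 1 with an unadjusted p under 0.05, read 3.53, 3.94, 3.77 and 3.81 on TES 1 to 4 and 3.97, 4.25, 4.36 and 3.87 on sham 1 to 4. TES 2 lay above sham 4, and the other TES arrays lay below every sham array. The Pcdhb21 difference was -0.35 ± 0.13 (SE; 95% interval -0.63 to -0.07), with a limma adjusted p of 0.843. Its 2 probe sets differed by -0.60 and -0.10, and the first has a mean signal of 2.20, below the low guide. Leaving out TES 1, sham 2 or sham 3 took its unadjusted p to 0.0621, 0.0518 and 0.0629. It was 0.0521 in the unmoderated test and 0.387 on the probe set of highest signal alone. Pcdhb6 and Pcdhb2 followed at -0.23 and -0.21, and Pcdhb7 was highest at 0.18, all with intervals that held 0. Of the 4 beta genes whose promoter sites are printed above, Pcdhb21 is the 1 that had an unadjusted p under 0.05.

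The 14 gamma genes, whose variable exons join shared constant exons, split evenly into 7 lower and 7 higher, between -0.18 (Pcdhgb7) and 0.25 (Pcdhga12). None had an unadjusted p under 0.05. Pcdhgc3, a C-type isoform, differed by 0.18 (95% interval -0.04 to 0.41). Pcdhga12 was highest in the mean but had an SD of 0.503 within groups, and its interval ran from -0.34 to 0.84. The 4 probe sets shared by all gamma genes differed by -0.07 to -0.03 with unadjusted p of 0.603 or more.

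Over single probe sets, 35 of the 518 (6.76%) had an unadjusted p under 0.05, 18 lower and 17 higher, against 5.13% of all probe sets on the array. None passed an adjusted p of 0.05, the smallest being 0.795.

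Genes that work with cadherins were followed through a list of catenins, desmosomal proteins, atypical cadherins and other surface proteins, enzymes that act on cadherins, and the chromatin factors Ctcf and Rad21. Of its symbols 51 genes were measured, among them Pcdh21 and Pcdh24, which are members listed there under their current names. Without these 2, 31 of 49 genes were lower and 18 higher in the mean, with a median difference of -0.023. Of the 49, 1 (2.04%) had an unadjusted p under 0.05, against 5.57% of all genes. Ush1c, the scaffold harmonin that binds Cdh23 and Pcdh15, read 5.16, 5.23, 5.15 and 5.17 on TES 1 to 4 and 5.29, 5.50, 5.41 and 5.30 on sham 1 to 4. Every TES array was below every sham array. The Ush1c difference was -0.19 (95% interval -0.37 to -0.02; limma adjusted p 0.854), and on its probe set of highest signal it was 0.06. Beta-catenin (Ctnnb1) stood at 9.46 ± 0.05 after TES and 9.47 ± 0.05 after sham. Alpha-catenin (Ctnna1) stood at 7.14 ± 0.07 and 7.03 ± 0.05, a difference of 0.11 (95% interval -0.07 to 0.28) with groups that did not overlap. Ush1c and Ctnna1 were the 2 of the 49 genes with non-overlapping groups, against 3.31% of all genes. The neural alpha-catenin Ctnna2 and the p120 family members Ctnnd1 and Ctnnd2 differed by -0.03, -0.07 and 0.01, and their 95% intervals held 0.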

How the data were processed

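Total RNA of 8 rat retina samples was measured on 1-colour Affymetrix Rat Gene 1.0 ST arrays. The authors made the deposited log2 signals with GC-RMA in GeneSpring GX, per the series text, and the submitters' processing notes name GCRMA. GC-RMA subtracts background by probe base composition, so low signals spread widely on the log scale. The log base was taken from the values, and how arrays were scaled is not stated in any label or header used here.

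Probe sets with 1 gene symbol were averaged per gene and array. All 16633 genes were fitted with limma 3.58.1 (lmFit and eBayes) in R 4.3.3, with no covariate and no filter, with Benjamini-Hochberg adjustment over the whole table. The fit was tested on simulated data. The thresholds of the series text were applied to the limma fit. SAM, which that text names, was not run. The number of arrays limits the precision. Differences of members that rest on shared exons or on probe sets with several symbols (18 probe sets) were kept apart.

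Members and lists were chosen with earlier results of these data known. Named genes were those with an unadjusted p under 0.05 or non-overlapping groups, and a fixed list of cadherins, protocadherins and catenins. Same-numbered TES and sham arrays deviated with correlations of 0.124, 0.132, 0.0056 and -0.119, so numbers were not taken as pairs. Differently numbered arrays reached similar values, from -0.138 (TES 1 with sham 2) to 0.123 (TES 4 with sham 2). Whether arrays of the 2 groups share an unrecorded factor was not tested, and the fit holds none. The alternatives were other summaries of probe sets, centring, quantile normalization, a filter on low signal, an unmoderated test, the replicate block and leaving out each array. Marker lists covered horizontal, ganglion, amacrine and bipolar cells, cones, rods, astrocytes, microglia, Mueller glia, lens, pigment and surface epithelium, endothelium, mural cells and erythrocytes. RefSeq promoter windows (GRCr8) served for sequences. Gene coordinates are left out, since no source used here names the build of the array's annotation.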

Additional observations from a re-analysis of the deposited data

Results flagged for a closer look

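Within groups of 4 arrays, 4 of 54 groups tested among the named genes held an array far from the other 3, and chance alone gives about 1 in 20. All 4 were sham arrays. Cdh1 was at 3.22 on sham 2, below the 3.77 to 3.83 of the other sham arrays. Cdh5 was at 4.21 on sham 3, above the 3.69 to 3.74 of the others. Cdh13 was at 5.93 on sham 1, below 6.16 to 6.20. Ctnna2, a neural alpha-catenin, was at 6.39 on sham 1, below 6.56 to 6.59. Without that array, the difference of Cdh1 went from -0.083 to -0.23 and that of Cdh5 from 0.23 to 0.35. That of Cdh13 went from -0.036 to -0.096 and that of Ctnna2 from -0.026 to -0.071.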

How the results depend on the processing

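The count of members past an adjusted p of 0.05 was 0 under every setting run. Cdh4 was lower after TES in all of them, from -0.43 to -0.31. Members with an unadjusted p under 0.05 were 3 instead of 5 with the probe set of highest mean (5.16% of all genes there) and 3 with the unmoderated test (5.45%). Those past the series' thresholds were 3 and 2 there (4.84% and 2.09% of all genes). At 1.5 fold they were 2 of 81, a higher share than the 0.144% of all genes. These are Pcdha4 and Pcdha1, on 1 and 2 probe sets, with mean signals of 3.21 and 3.24, near the low guide of 3.10. With the replicate block 7 members had an unadjusted p under 0.05, where 6.31% of all genes did. With the median probe set 0 members had non-overlapping groups (2.99% of all genes). Leaving out 1 array gave 2 to 6 such members, and 5.61% to 6.60% of all genes, since fewer arrays overlap less often. Of the 51 partner genes, 2 had an unadjusted p under 0.05 with the median probe set and 4 with the probe set of highest mean. Of all genes, 5.37% and 5.16% did there. The count was 0 with quantile normalization, 2 unmoderated and 2 with the replicate block (5.39%, 5.45% and 6.31% of all genes). Leaving out 1 array gave 0 to 2 partner genes, and 5.21% to 5.89% of all genes. Leaving out the partners that are members, an alternative chosen after seeing the data, gave 1 of 49, against 1 of 51 with them. Member probe sets with an unadjusted p under 0.05 were 23 of 387 without the lowest 25% of probe sets by signal (4.81% of all probe sets kept). With 1 array left out they ran from 23 of 518 (without TES 3) to 38 of 518 (without sham 4). Of all probe sets, 4.89% and 5.42% did in these 2 settings. The share of members lower in the mean depends on scaling: 51 were lower as deposited, 44 with arrays centred on their median and 46 after quantile normalization, while all genes went from 54.9% to 43.3% and 50.5% lower.

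Some differences took the other sign, among them Cdh5 (0.23 in the main fit), Ush1c (-0.19), Cdh10 (-0.17) and Cdh3 (-0.15). On the brightest probe set (highest mean) they were 0.27 for Cdh3, -0.032 for Cdh5, -0.16 for Cdh6, -0.070 for Cdh23, 0.0059 for Pcdh10, 0.062 for Ush1c, 0.096 for Ctnnb1, 0.12 for Ctnnd1 and -0.027 for Ctnnd2. With the median probe set they were 0.027 for Cdh8, 0.19 for Cdh10, -0.0062 for Cdh23, -0.099 for Pcdh17, 0.17 for Pcdh19, 0.31 for Ctnna2 and -1.5e-05 for Ctnnd2. With centred arrays they were 0.0019 for Cdh8, 0.011 for Pcdh21, 0.022 for Ctnnb1 and 0.0058 for Ctnna2. With 1 array left out, Cdh6 ran from -0.0097 to 0.10, Cdh8 from -0.083 to 0.049, Pcdh21 from -0.054 to 0.025, Pcdh9 from -0.035 to 0.039, Pcdh17 from -0.048 to 0.082, Ctnnb1 from -0.029 to 0.012, Ctnna2 from -0.071 to 0.0042 and Ctnnd2 from -0.031 to 0.029. The cause of these changes was not tested.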
